A study of Mus musculus with 6 samples.

Results

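The immediate early transcription factors are a set of 10 genes, Fos, Fosb, Jun, Junb, Jund, Egr1, Egr2, Ier2, Atf3 and Klf4, taken by name from the 18193 genes that have a probe set annotated to exactly 1 gene symbol. All 10 were on the array, through 14 probe sets, 1 each for 6 genes and 2 each for Jun, Jund, Egr2 and Klf4. Hearts were taken from mouse embryos at E10.5, and RNA of 3 wild-type (WT) and 3 RhoE knockout (KO) samples, all on C57BL/6N, was hybridised to Affymetrix whole-genome arrays. RhoE is the protein of the gene Rnd3 and restrains the kinase ROCK1. The knockout is global and was made with a gene trap, in which an inserted cassette cuts the transcript short, and per the series' design text such embryos die in mid-gestation. The labels name no treatment for either group. The design text describes littermate pairs, but the labels tie no replicate number to a litter and do not say how many hearts went into a sample. The p-values rest on the spread between these arrays alone, and part of that spread may be technical.

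Immediate early genes are transcribed within minutes of a stimulus such as a growth factor, stretch or stress, without any new protein having to be made first. Signals through MAP kinases and actin assembly reach their promoters through serum response factor and its partners, and cAMP signals reach them through CREB. Fos and Jun proteins pair to form the AP-1 factor, Egr proteins are zinc finger activators, and many immediate early transcripts are short-lived. In the embryonic heart such genes are known to respond to growth factor and mechanical signals, and Klf4 also belongs to the flow-responsive program of endothelial cells.

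Fos, Jun, Junb, Jund, Egr1, Ier2, Atf3 and Klf4 differed little between KO and WT hearts, from a log2 fold change (KO over WT) of -0.12 for Ier2 to 0.33, or 1.25-fold, for Klf4. Fosb and Egr2 were too dim to be tested. Of the 8 tested genes, 0 passed an adjusted p of 0.05 (limma, Benjamini-Hochberg over 12712 genes), where 1.27% of all genes passed. The count behind that share, 162 genes, ran from 0 to 917 when 1 array was left out. At an unadjusted p of 0.05, 1 of the 8 passed (Klf4), where 20.3% of all genes did. The WT and KO arrays did not overlap for 2 of the 8, Klf4 and Junb, both higher in KO, where 26.3% of all genes did not overlap and 10.8% of all genes did so with KO higher. Adjusted p ranged from 0.220 for Klf4 to 0.943 for Egr1. The limma 95% intervals of all 8 lay within a 2-fold change in either direction, and those of 6 within 1.5-fold, the exceptions being Klf4 and Junb.

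Promoter sequences of the members were read from a RefSeq table (GRCm38.p6) that gives 250 bases before to 50 bases after each annotated start, with 12 entries for 8 of the 10 genes; Egr1 and Ier2 were not matched. The 2 members whose groups did not overlap, Klf4 and Junb, are shown beside Fos, the textbook immediate early gene, each 5′ to 3′ on the strand of its gene. Capitals mark the core TGACG of the cAMP response element (either strand), the TATA box TATAAA (gene strand) and the Egr site GCGNGGGCG (either strand).
Fos, chr12:85473640-85473939, plus strand: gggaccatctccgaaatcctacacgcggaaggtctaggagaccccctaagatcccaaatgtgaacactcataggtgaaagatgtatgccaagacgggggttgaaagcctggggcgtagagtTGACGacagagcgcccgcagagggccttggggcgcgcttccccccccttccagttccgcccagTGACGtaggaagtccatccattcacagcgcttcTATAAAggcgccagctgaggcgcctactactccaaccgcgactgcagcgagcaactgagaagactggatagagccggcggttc
Junb, chr8:84978699-84978998, minus strand: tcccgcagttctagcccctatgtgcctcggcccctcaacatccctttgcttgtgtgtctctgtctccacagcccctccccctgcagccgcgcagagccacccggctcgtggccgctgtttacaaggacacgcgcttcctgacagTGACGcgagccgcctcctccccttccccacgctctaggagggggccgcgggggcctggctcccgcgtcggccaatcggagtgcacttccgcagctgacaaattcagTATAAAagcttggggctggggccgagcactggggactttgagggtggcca
Klf4, chr4:55532426-55532725, minus strand: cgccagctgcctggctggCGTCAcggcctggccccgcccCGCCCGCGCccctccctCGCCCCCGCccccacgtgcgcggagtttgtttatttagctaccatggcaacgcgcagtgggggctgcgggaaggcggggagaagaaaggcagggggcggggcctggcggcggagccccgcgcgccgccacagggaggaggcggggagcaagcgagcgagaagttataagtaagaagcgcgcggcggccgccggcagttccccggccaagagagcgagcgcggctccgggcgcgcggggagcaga
In Fos, TGACG began at -129 and at -66 from the annotated start and TATAAA at -33. In Junb, TGACG began at -106, and TATAAA lay at 1 to 6, directly at the annotated start. Klf4 had no TATAAA; it had a TGACG core on the opposite strand at -232 to -228 and Egr sites at -211 to -203 and -194 to -186, also on the opposite strand. The share of G and C was 58.7% in Fos, 65.3% in Junb and 74.3% in Klf4, beside a median of 52.7% over all entries.

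The CArG box, the binding element of serum response factor, was found in this window for Egr2 alone among the 8 genes, and 1.63% of all 32851 promoter entries hold it on either strand. Egr2 has several annotated starts and 2 such boxes, shown in capitals with the bases around them.
Egr2 first box, chr10:67537469-67537528, plus strand: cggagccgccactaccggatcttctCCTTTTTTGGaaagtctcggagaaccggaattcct
Egr2 second box, chr10:67537772-67537831, plus strand: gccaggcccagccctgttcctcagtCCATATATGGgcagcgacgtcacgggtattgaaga
The TGACG core was in 8 of the 12 entries, from 6 of the 8 genes, and 20.8% of all promoter entries hold it. Several of the 12 are overlapping entries of Egr2. The full cAMP element TGACGTCA was in 0 of the 8 (1.79% of all entries), as was the AP-1 site TGANTCA (7.81%), both on either strand. TATAAA was in 2 of the 12 entries, from 2 genes (8.32% of all entries), and GCGNGGGCG in 2, also from 2 genes (5.55%). TGACG is also part of TGACGTCA. The CCAAT box, searched on both strands, was in 6 of the 12 entries, from 4 of the 8 genes (37.4% of all entries). These are matches of letters in a short window and not measured binding.

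The values are MAS5 signals, a brightness per probe set on a linear scale, and a low-signal limit was set at each array's 40th percentile (44.5 to 52.8). Rnd3 itself gave 909, 954 and 862 in WT and 5.89, 12.3 and 121 in KO (limma adjusted p = 0.0344). KO replicates 1 and 2 lay below the limit, so the fitted log2 fold change of -5.46 (SE 0.81) is uncertain in size, and it was -3.75 with low signals raised to the limit. The call was lost when any 1 WT array was left out (adjusted p from 0.114 to 0.166, and from 2.5e-06 to 0.206 over all alternatives that tested Rnd3). No KO array exceeded the limit for the other Rnd3 probe set, which missed the threshold when each probe set was tested on its own (adjusted p = 0.0748). All 10 cardiomyocyte markers, among them Tnnt2 and Myh6, were above the limit on all 6 arrays, and none passed the test. Their sums ran from 248848 to 267290 in WT and from 238674 to 260563 in KO, lowest on KO replicate 2. Myh6, Myl2, Ryr2 and Nkx2-5 were below every WT array on each KO array, and Nppa was above every WT array. The other cardiomyocyte markers had overlapping groups. Over all tested genes, log2 signals correlated at 0.982 to 0.983 within WT, 0.975 to 0.978 within KO and 0.970 to 0.981 between the groups. Xist, the RNA of the inactive X chromosome, gave 10251, 12474 and 11878 in WT but 539, 8884 and 28.4 in KO, and every KO array was above every WT array for the Y-linked Eif2s3y, Uty and Kdm5d. Genotype and the sex of the tissue therefore cannot be fully told apart. Of the KO arrays only replicate 2 had Xist near the WT level, so estimates with Xist as a covariate lean mostly on that array.

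**Figure D1:**
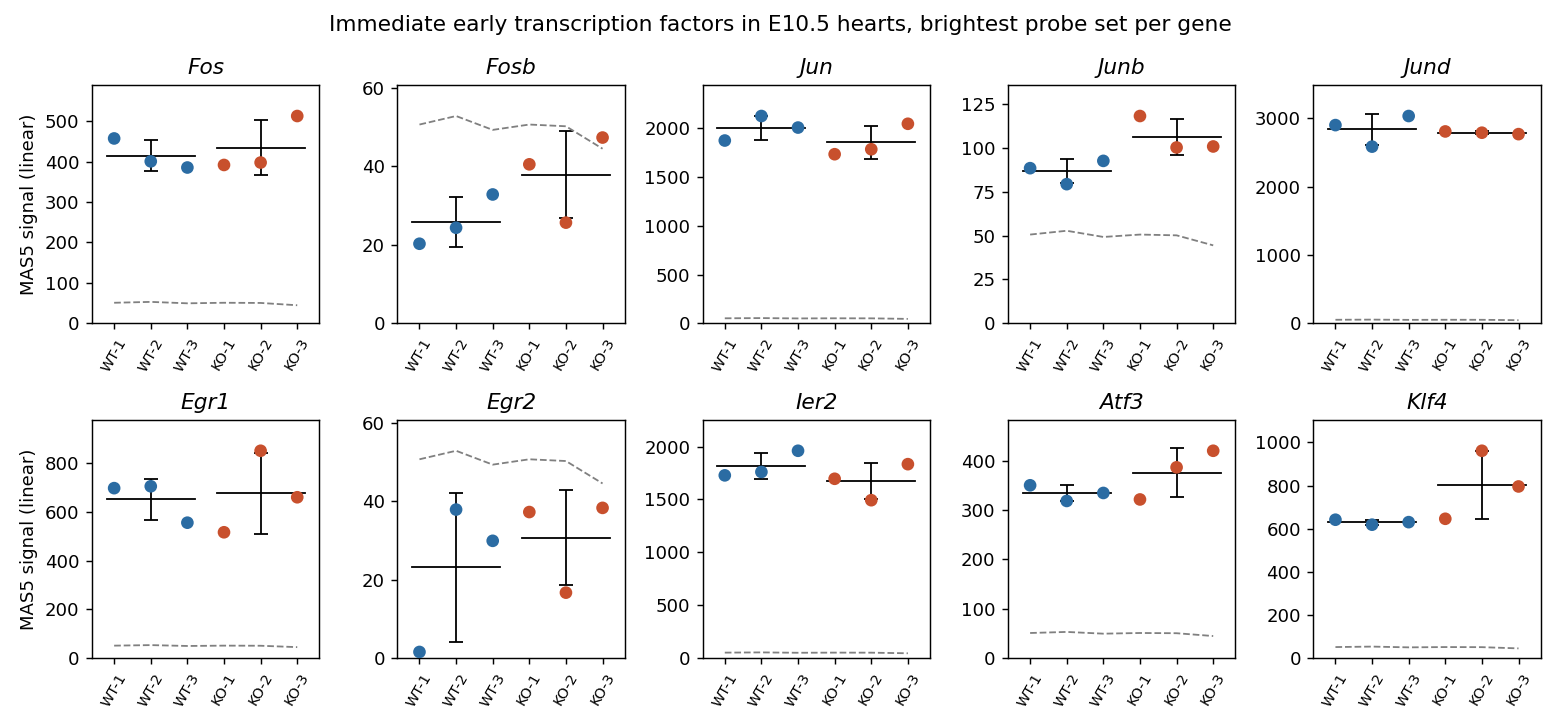
MAS5 signal (linear scale, each axis from 0) of the brightest probe set of each of the 10 genes on the 3 WT (blue) and 3 KO (red) arrays. Black lines and bars are group means ± SD and the dashed line is the low-signal limit; Egr2 lies below it on every array and Fosb on all but KO replicate 3, and only Junb and Klf4 have KO arrays that are all above the WT arrays.

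Among the Fos proteins, which cannot pair with themselves and need a Jun partner, Fos gave 457, 401 and 385 in WT and 392, 398 and 513 in KO. The KO replicate 3 array was the highest and the groups overlapped. The log2 fold change was 0.059 (SE 0.14, limma adjusted p = 0.846), with a 95% interval from -0.25 to 0.37. Fos turned to -0.14 with Xist as a covariate and to -0.067 without KO replicate 3. Fosb, a close relative of Fos, gave 20.3, 24.3 and 32.8 in WT and 40.5, 25.6 and 47.3 in KO. Its 1 probe set was above the limit on the KO replicate 3 array only, so Fosb was not tested and no fold is given.

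Of the Jun proteins, Jun is the strongest activator, Junb often acts as its antagonist and Jund is present in resting cells. The brighter Jun probe set gave 1876, 2128 and 2010 in WT and 1736, 1787 and 2048 in KO. KO replicates 1 and 2 were below every WT array and KO replicate 3 lay among them. Its log2 fold change was -0.11 (SE 0.099, limma adjusted p = 0.562), and ran from -0.18 without KO replicate 3 to -0.066 without KO replicate 1. The other Jun probe set gave 1174, 1410 and 1252 in WT and 1138, 1503 and 1475 in KO, a log2 fold change of 0.094 (SE 0.13). Here KO replicates 2 and 3 were the highest of the 6 arrays, so the 2 Jun probe sets pointed in opposite directions, each by about its SE.

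Junb gave 88.6, 79.4 and 92.7 in WT and 118, 100 and 101 in KO. Every KO array was above every WT array, and the level was low, not far above the limit. The log2 fold change was 0.29 (SE 0.24, limma adjusted p = 0.521), with a 95% interval from -0.23 to 0.81. The SD between arrays of a group, pooled over both groups, was 0.13 on the log2 scale; the SE is larger than this because limma's intensity trend assigns a wider spread to dim probe sets. Without that trend the adjusted p was 0.276, the lowest over the alternatives, which reached 0.729. Jund was the steadiest of the 8, at 2902, 2587 and 3035 in WT and 2809, 2791 and 2770 in KO. The 3 KO arrays lay between the lowest and the middle WT array. Its log2 fold change was -0.023 (SE 0.089, limma adjusted p = 0.908) and its sign turned with median centring of the arrays, where it was 0.036. A second Jund probe set was above the limit on the KO replicate 3 array alone and was not tested; averaged with it, Jund had -0.34 (adjusted p = 0.708).

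Egr1, a zinc finger factor induced by growth factor and mechanical signals, gave 697, 705 and 555 in WT and 516, 850 and 660 in KO. The lowest and the highest of the 6 arrays were both KO, replicates 1 and 2. The log2 fold change was 0.029 (SE 0.17, limma adjusted p = 0.943), with a 95% interval from -0.35 to 0.41. It was -0.15 without KO replicate 2, -0.083 without WT replicate 3 and -0.049 with array weights. Egr2, which patterns the hindbrain and directs myelination, was below the limit on all 6 arrays with both of its probe sets. The brighter one gave 1.53, 37.8 and 29.9 in WT and 37.2, 16.7 and 38.3 in KO, and no fold is given.

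Ier2, a small nuclear protein induced with the first wave, gave 1728, 1760 and 1961 in WT and 1696, 1493 and 1834 in KO. KO replicates 1 and 2 were below all WT arrays and KO replicate 3 was above 2 of them. The log2 fold change was -0.12 (SE 0.10, limma adjusted p = 0.556). It ran from -0.19 without KO replicate 3 to -0.040 without KO replicate 2, and was -0.28 with Xist as a covariate. Atf3, a stress-induced factor of the ATF and CREB family, gave 350, 318 and 335 in WT and 321, 387 and 420 in KO. KO replicates 2 and 3 were above every WT array and KO replicate 1 was not. The log2 fold change was 0.16 (SE 0.14, limma adjusted p = 0.545), and ran from 0.077 without KO replicate 3 to 0.27 without KO replicate 1.

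Klf4, a zinc finger factor of epithelial and endothelial cells and of stem cells, had the largest estimate of the 8. Its brighter probe set gave 642, 619 and 630 in WT and 646, 961 and 796 in KO. The 3 WT arrays were nearly equal, and KO replicate 1 was only just above them while the other 2 KO arrays were clearly higher. The log2 fold change was 0.33 (SE 0.14, limma adjusted p = 0.220), with a 95% interval from 0.020 to 0.64. Without KO replicate 1 it was 0.47 and passed (adjusted p = 0.0473), in a fit that called 917 genes; without KO replicate 2 it was 0.19 (adjusted p = 0.460), and with Xist as a covariate 0.47 (adjusted p = 0.184). The dimmer Klf4 probe set gave 295, 348 and 387 in WT and 253, 399 and 324 in KO, with overlapping groups and a log2 fold change of -0.093 (SE 0.18). Both probe sets were above the limit on all 6 arrays, and averaging them gave 0.12 (adjusted p = 0.765). Over all alternatives the adjusted p of Klf4 thus ran from 0.0473 to 0.765.

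Markers of other cell types were compared over the same arrays beside the Klf4 values. The KO replicate 2 array, highest for Klf4, also had the highest summed signal of the 8 endothelial markers, 10242, against 8453 to 9285 in WT and 8874 to 10242 in KO. On that array Pecam1, Cdh5, Tek, Emcn and Npr3 were above every WT array, Cdh5 only just. Kdr, Tie1 and Egfl7 lay within the WT range. None of the 8 endothelial markers passed the test, and all were above the limit on all 6 arrays. KO replicate 2 also had the highest sum of the 10 macrophage markers, 2564, against 1020 to 1174 in WT and 1090 to 2564 in KO. Of these 10, 8 were tested and 1, Lyz2, rose, and 6 were above the limit on all 6 arrays. Lyz2 was above every WT array on each KO array. Csf1r, Adgre1 and Cx3cr1 were so on KO replicate 2 only, and were below every WT array on KO replicates 1 and 3. Csf1r, for example, gave 286, 336 and 300 in WT and 254, 573 and 191 in KO. The other tested macrophage markers were also above every WT array on KO replicate 2. On KO replicate 1 Fcer1g was above every WT array too, and Cd68, C1qb and Tyrobp lay within the WT range. On KO replicate 3 Cd68 and C1qb were below every WT array, and Fcer1g and Tyrobp lay within the WT range. The summed signal of the 6 foregut and surface epithelium markers ran from 5242 to 5741 in WT and from 2545 to 4939 in KO, lowest on KO replicate 2. Of these markers 5 were tested, none passed, and 4 were above the limit on all 6 arrays. The 5 epicardial markers were highest on that array too, at 9688, against 7789 to 8185 in WT and 5665 to 9688 in KO, and none passed. Sums of the 6 platelet markers ran from 1630 to 2110 in WT and from 2001 to 2582 in KO, with Ppbp higher past the test. The other platelet markers had overlapping groups, and Gp9 was below every WT array on KO replicates 2 and 3. Those of the 9 liver and yolk sac endoderm markers ran from 1646 to 7632 in WT and from 470 to 2150 in KO, with Alb lower past the test. Only 3 of these 9 were above the limit on all 6 arrays and 1 was below it on all 6. Alb was below the limit on KO replicates 2 and 3. Afp alone gave 1116, 2496 and 6054 in WT and 216, 1074 and 2.78 in KO, and made up most of the WT sums. The other tested markers of this list, Ttr, Apoa1, Apoa2, Apob and Rbp4, had overlapping groups. The other lists, of cushion mesenchyme, erythroid and neural cells, had no marker past the test. The part of these markers in the Klf4 values was not tested. In a bulk heart sample, fewer cells of a type and less RNA per cell cannot be told apart.

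**Figure D2:**
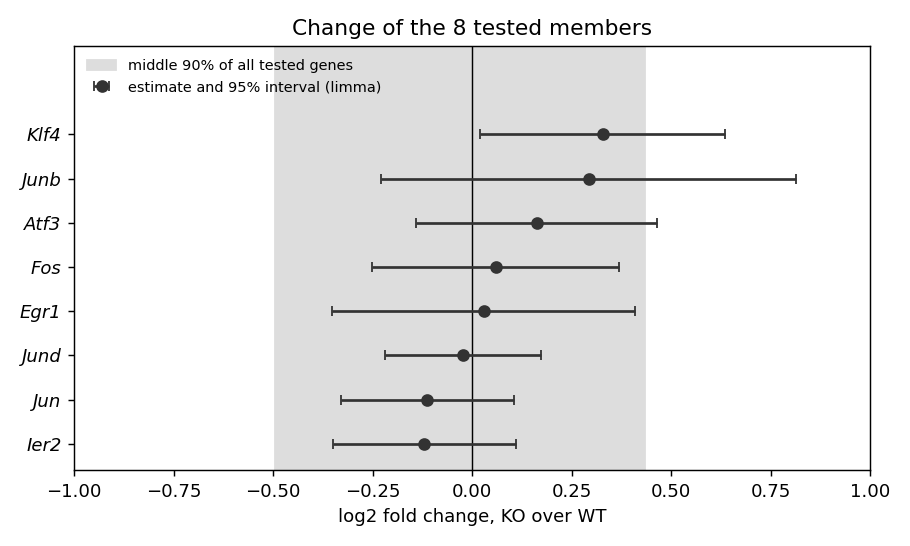
Log2 fold change of KO over WT for the 8 tested genes (points) with limma's 95% interval (bars). The grey band holds the middle 90% of all 12712 tested genes, from -0.50 to 0.44; all 8 points lie inside it and the interval of Klf4 alone excludes 0.

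**Figure D3:**
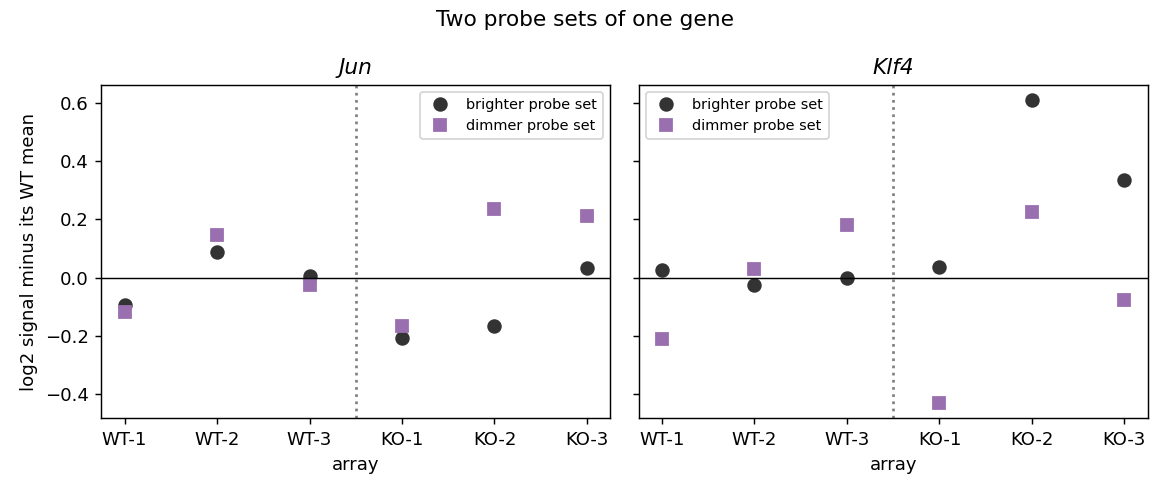
Log2 signal of both probe sets of Jun and of Klf4 on each array, minus that probe set's WT mean. In the KO hearts the brighter and dimmer probe sets differ, with Klf4 at log2 fold changes of 0.33 and -0.093 and Jun at -0.11 and 0.094.

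Of the 8 tested genes 5 had a positive and 3 a negative log2 fold change, or 6 and 2 with median centring, which put the median over all tested genes at 0.019. Without centring the median of the 8 was 0.044, beside -0.040 over all tested genes. The median size of the change, whatever its sign, was 0.12, beside 0.17 over all genes, and 6 of the 8 had a size below that. The lowest of the 6 arrays was WT replicate 2 for 4 of the 8, Atf3, Junb, Jund and Klf4. It was KO replicate 1 for Egr1 and Jun, KO replicate 2 for Ier2 and WT replicate 3 for Fos. The highest value was spread over more arrays and fell on KO replicate 2 for Egr1 and Klf4, on KO replicate 3 for Fos and Atf3, on KO replicate 1 for Junb, on WT replicate 3 for Jund and Ier2 and on WT replicate 2 for Jun. How often each array was the lowest or highest over all tested genes was not examined, so these counts only describe the members. As a measure of RNA integrity, 3′ over 5′ control signal for Gapdh came to 1.11 ± 0.0175 in WT and 0.969 ± 0.0274 in KO (SD, n = 3 per group), without overlap. The Actb ratio was 2.52 ± 0.147 and 2.40 ± 0.164. The part of RNA integrity in the members' values was not tested.

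Pooled over both groups, the spread between arrays of a group was not wide for these genes. The pooled within-group SD on the log2 scale had a median of 0.14 over the 8, beside 0.17 over all tested genes. It was highest for Egr1, at 0.29, above 78.6% of all tested genes, and lowest for Jund, at 0.084, above 13.5%. By group, the median SD over the 8 was 0.107 in WT, beside 0.131 over all tested genes, and 0.174 in KO, beside 0.168. The SD was larger in KO than in WT for 7 of the 8, all but Jund, and for 60.5% of all tested genes. For Klf4 it was 0.026 in WT and 0.29 in KO, and for Egr1 0.19 and 0.36. These differences in spread were not tested.

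The genes with the most similar profile were found by the root mean square difference between log2 signals centred on each gene's mean, over the 6 arrays. Closest to Fos were Pcgf5 (0.052), Dmxl2 (0.053) and Polk (0.058), beside a deviation of Fos from its own mean of 0.15. Closest to Egr1 were Lrrc8d (0.044), Nme1 (0.046) and Rbak (0.068), beside 0.24 for Egr1 itself. Closest to Jun were C1qtnf6 (0.017), Prkag1 (0.026) and Tedc1 (0.035), beside 0.11 for Jun itself. No member was among the 3 genes closest to Fos, Egr1 or Jun. The nearest members were Atf3 to Fos (0.11, rank 256 of all tested genes), Klf4 to Egr1 (0.19, rank 1021) and Ier2 to Jun (0.096, rank 493).

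Genes around the members were examined in 5 lists, with 81 genes tested in all. None passed the test over all genes (limma adjusted p of 0.05, where 1.27% of all genes passed), and 13 of the 81 had an unadjusted p below 0.05, where 20.3% of all genes did. Without KO replicate 1, 6 passed, of which Bhlhe40, Klf2, Araf and Ccn2 were higher and Ccn1 and Dusp4 lower in KO; 7.34% of all genes passed in that fit.

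**Figure D4:**
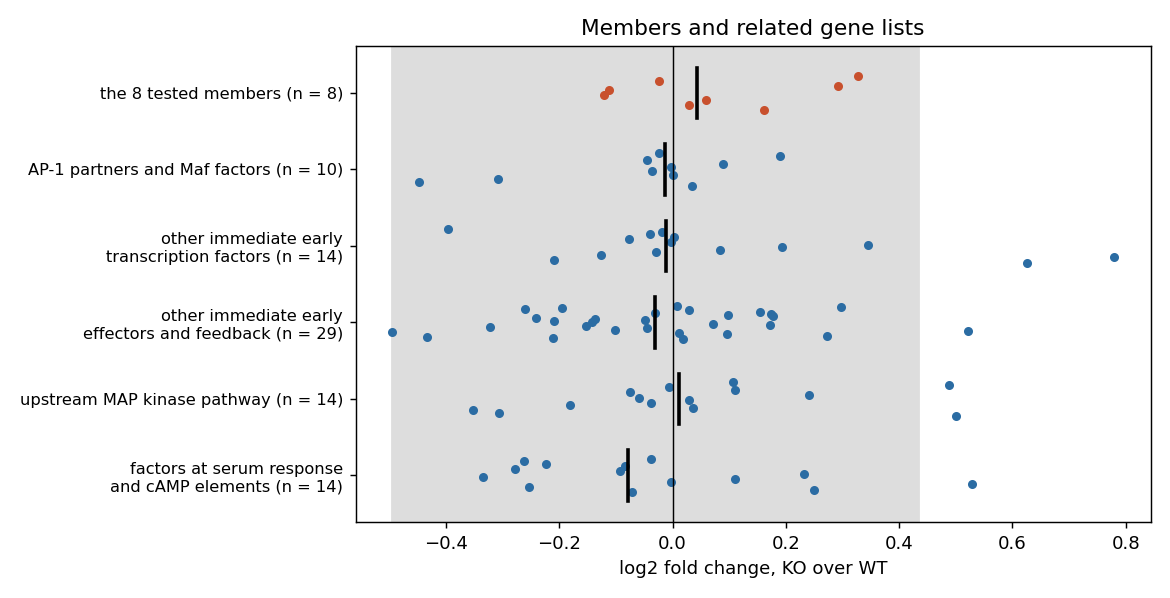
Log2 fold change of KO over WT for each tested gene of the members and of 5 related lists, with the list's median as a black bar and the middle 90% of all tested genes in grey. The medians lie between -0.078 and 0.044.

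Of 16 other immediate early transcription factors with a probe set 14 were tested, 6 with a positive and 8 with a negative log2 fold change and a median of -0.011. The groups did not overlap for 3 of them, where 26.3% of all genes did not. Bhlhe40, a repressor of the circadian and hypoxia responses, gave 236, 239 and 298 in WT and 336, 479 and 384 in KO, which put the log2 fold change at 0.63 (SE 0.16, limma adjusted p = 0.0760). Its groups did not overlap, and with array weights it passed. The nuclear receptor gene Nr4a2 had -0.40 (SE 0.13) and Klf2, a flow-responsive endothelial relative of Klf4, had 0.34 (SE 0.13), both without overlap of the groups. Klf2 gave 627, 586 and 608 in WT and 647, 788 and 898 in KO. As with Klf4, KO replicate 1 was the KO array nearest to WT, but it was so over all tested genes too. Its log2 signals correlated with the WT arrays at 0.980 to 0.981, against 0.970 to 0.975 for KO replicates 2 and 3.

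Of 32 other effectors and feedback genes with a probe set 29 were tested, 14 with a positive and 15 with a negative log2 fold change. The groups did not overlap for 7 of them (26.3% of all genes), the median was -0.030 and the smallest adjusted p 0.141. Ccn1, a matrix protein gene controlled by serum response factor and YAP, had -0.43 (SE 0.15), from a probe set of the type that may cross-hybridise, the NF-kB inhibitor gene Nfkbia -0.21 (SE 0.080) and Zfp36l1, of mRNA decay, 0.30 (SE 0.12). Of 11 AP-1 partners and Maf factors with a probe set 10 were tested, 3 positive and 7 negative, and the median was -0.014, with Atf7 at -0.45 (SE 0.23), Batf at -0.31 (SE 0.20) and Mafg at 0.19 (SE 0.15). These 3 had overlapping groups, and no gene of this list had an unadjusted p below 0.05.

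Upstream, 14 of the 23 listed genes of the MAP kinase pathway had a probe set annotated to them alone in the data used here, and the other 9 were not analysed here. All 14 were tested, 7 positive and 7 negative, with a median of 0.011. Rps6ka5, a kinase that phosphorylates CREB and histone H3 at immediate early genes, gave 359, 364 and 369 in WT and 546, 542 and 449 in KO, which put the log2 fold change at 0.49 (SE 0.12, limma adjusted p = 0.0687). The groups lay well apart, though the adjusted p missed the threshold. Araf, a RAF kinase, had 0.50 (SE 0.14, adjusted p = 0.0936) and the JNK gene Mapk9 0.24 (SE 0.13). Of the 14 factors that act at serum response and cAMP elements 4 were positive and 10 negative, with a median of -0.078 (-0.019 with median centring). Crtc1, a CREB coactivator, gave 159, 174 and 173 in WT and 235, 243 and 251 in KO, which put the log2 fold change at 0.53 (SE 0.15, limma adjusted p = 0.0924). Ep300, a histone acetyltransferase, had -0.28 (SE 0.092) and Elk1, a partner of serum response factor, -0.33 (SE 0.15), neither past the threshold. With median centring the medians of 3 of the 5 lists, those of the AP-1 partners, the other transcription factors and the effectors (with quantile normalization the first 2 only), turned positive (0.045, 0.048 and 0.028). The median over all tested genes turned too, from -0.040 to 0.019 with median centring, and was -0.018 with quantile normalization.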

How the data were processed

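The authors deposited 1 table of linear signal intensity for each probe set. The submitters' processing notes name MAS5 and Affymetrix Expression Console; neither version nor setting is given in the sources used here. Each array's 2% trimmed mean was 500, which shows a common scaling target, and the values were not scaled again. The 64 control probe sets were left out. Of the other 45037, 34945 had 1 gene symbol in the platform's annotation, 932 had several and 9160 were unnamed here; 34741 matched a RefSeq gene by identifier and 0 symbols changed.

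Signals were taken to log2. Each gene was represented by its brightest probe set over all arrays, tested if above the low-signal limit on at least 3 arrays, which left 12712 genes. KO was compared with WT with limma 3.58.1 in R 4.3.3 (eBayes with an intensity trend), with Benjamini-Hochberg adjustment at 0.05. The low-signal limit was a choice and does not measure background. The number of arrays limits the precision. Standard errors (SE) are those of limma, and intervals are not adjusted for multiple tests. The procedure was tested on simulated data.

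The members and lists were chosen with earlier results of these data known. The text names all members, Rnd3, of each list the genes past the threshold and otherwise the 3 with the smallest p, the 3 genes most alike to Fos, Egr1 and Jun, and sex-linked genes. Ccn2, Dusp4 and the single cell type markers, among them Lyz2, Csf1r, Adgre1, Cx3cr1, Ppbp, Afp and Alb, were named after their values were seen. Alternatives covered normalization, centring, the filter, a floor, the probe set used, the trend in the variance, array weights, a replicate block, Xist as a covariate, the threshold and leaving out each array.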

Additional observations from a re-analysis of the deposited data

How the results depend on the processing

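The count of 0 tested members past the threshold held under every alternative listed under processing except 1, leaving out KO replicate 1, so the range over left-out arrays was 0 to 1 (Klf4). The count over the 5 related lists was 0 except with array weights (1) and at a threshold of 0.10 (4, where 6.33% of all genes passed), and 0 to 6 over left-out arrays; these alternatives for the lists were added after seeing the data. The count over all genes, 162, moved far more: 83 with median centring (80.7% of them higher, against 61.7%), 1 without the filter, 291 with probe sets required above the limit on all arrays, 0 with probe sets averaged, 1 without the intensity trend, 542 with array weights, 6 with Xist as a covariate, 805 at a threshold of 0.10 and 0 to 917 over left-out arrays. Signs turned for estimates near 0: Egr1 to -0.049 with array weights (-0.15 to 0.21 over left-out arrays), Fos to -0.14 with Xist as a covariate (-0.067 to 0.13) and Jund to 0.036 with median centring and 0.0022 with array weights (-0.089 to 0.026). Jund was at -0.34 with probe sets averaged. Rnd3 no longer passed without the filter (-5.46, adjusted p = 0.0518), with probe sets averaged (-4.63, 0.0825), without the intensity trend (-5.46, 0.206) or without any 1 WT array, and ran from -6.74 to -4.56 over left-out arrays. It was not tested where probe sets had to be above the limit on all arrays. The cause of these changes was not tested. Whether replicate numbers pair the arrays was not settled, as deviations from the means of only 3 arrays can hide a pairing. Deviations of same-numbered arrays correlated at 0.018, 0.057 and 0.015 over genes, and those of the other pairs from -0.037 to 0.021. WT replicate 1 and KO replicate 3 correlated best with each other, and every other array with its own number. With the replicate number as a block 189 genes and 0 members passed, 0 genes of the lists passed, and Rnd3 was at -5.46. Signals close to the low-signal limit restrict what can be said of Fosb, Egr2 and, in part, Junb.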
